A study of Mus musculus with 12 samples.

Results

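Undifferentiated mouse embryonic stem (ES) cells whose labels name a Sirt7 knockout were compared with cells labelled wild type, as 3 against 3 RNA-seq libraries of day 0, which are 6 of the 12 libraries of the series. The members were chosen by their labels for genotype and day. All cells were female hybrids of the mouse strains C57BL6 and CAST, and per the labels' protocol they received leukaemia inhibitory factor (LIF) up to day 0, when LIF was removed. The other 6 libraries were of the same genotypes at day 7 without LIF. A separate treatment label reads LIF for knockout replicates 1 and 3 and wild type replicate 2, and none for the other day 0 libraries, which goes against that protocol. The labels do not say how many clones the knockout stands for, which part of Sirt7 was removed, or whether the replicates came from separate cultures, so p-values measure only the spread between these libraries.

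SIRT7 is a nuclear, NAD-dependent deacylase that is concentrated in the nucleolus, where it acts on RNA polymerase I transcription, and that removes acetyl groups from histone H3 at promoters. ES cells hold their undifferentiated state through a network of transcription factors around Oct4 (Pou5f1), Sox2 and Nanog. Esrrb is an orphan nuclear receptor of the naive part of that network, LIF acts on it through STAT3, and signalling by FGF and ERK moves cells out of it.

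The 6 libraries held between 25587861 and 43984022 reads, and 19235 of the 55487 listed genes had enough reads to test. Levels are given as CPM, the usual scaling of reads to library size, in the order knockout replicates 1, 2 and 3, then wild type replicates 1, 2 and 3. All 12 ES cell markers were measured. Of the fibroblast markers, Col3a1 and Dcn had no reads, and the mesoderm factor T (0.50 against 0.50 CPM), the primitive endoderm factor Gata6 (0.22 against 0.24) and the trophoblast factor Cdx2 (0.094 against 0.19) were low in both groups. Other markers of these cell types were read more or differed. In a second deposited table, described further on, the mesoderm markers Eomes (9.6 against 6.7 CPM) and Etv2 (3.3 against 5.0) did not overlap between the groups. Neither did the endoderm marker Dab2 (0.48 against 1.14) and the fibroblast marker Pdgfrb (0.94 against 1.51). The trophoblast marker Tfap2c read 44 against 38 CPM there. The libraries are bulk samples, so that fewer cells of a type and less RNA per cell cannot be told apart.

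Sirt7 itself (chromosome 11, 120618372 to 120625240, GRCm38) was not lower in the libraries labelled knockout. It measured 19.2, 23.8 and 16.9 CPM there against 12.7, 8.03 and 10.3 CPM, so every knockout library lay above every wild type library. The log2 difference was 0.95 (SE 0.21), which did not pass adjustment in edgeR (adjusted p = 0.182). The second deposited table of these libraries had 18.1, 37.3 and 33.8 against 17.1, 19.9 and 19.8 CPM (log2 0.65), where the groups overlapped. Its full-length coding transcript Sirt7-201 measured 3.26, 1.32 and 7.13 CPM against 0.469, 0.114 and 0.0674 CPM at day 0, but 0, 0 and 0.067 CPM against 4.17, 0.811 and 2.54 CPM at day 7. The coding transcript Sirt7-207 overlapped at day 0, and so did the Sirt7-201 share of the gene's reads in the divided table (7.09, 0.849 and 39.5% against 1.72, 11.8 and 1.85%). Sirt7 overlaps the end of Mafg on the same strand, and Mafg was at -0.32. None of the 5 tested genes on each side of Sirt7 was called. The reads therefore do not verify the genotype labels, and each direction below holds only as far as the labels do.

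By edgeR with Benjamini-Hochberg adjustment, 25 of 19235 genes were called at an adjusted p of at most 0.05, which is 0.130% of the genes tested. Of these, 17 were higher and 8 lower in knockout, and 16 differed at least 2-fold. The called genes have varied functions: a pluripotency factor, chromatin and transcription regulators, receptors of the Eph and angiopoietin families, cohesin, small-molecule transporters and a mitochondrial ribosome subunit were higher, and membrane proteins, an ERK phosphatase, a Rag GTPase and an NADPH oxidase chaperone were lower. An unadjusted p under 0.05 was found for 2298 genes. With each day 0 library left out in turn, edgeR called 8 to 34 genes higher and 5 to 21 lower. Of the 25, 7 (Mrps23, Epha4, Mysm1, Esrrb, Stag2, Cybc1 and Gm2174) were called in all 6 of these fits. Tek and Dusp9 were called in 3 of the 6. Acsl3, Pogz, Slc31a1, Tspan7, Cc2d1a and Slc25a51 were called in 1, and Pecam1, Wdr86 and Bcl7a in 0. These fits estimated the spread from the day 7 libraries as well. The 6 day 0 libraries alone gave 0 calls in edgeR (774 genes higher and 598 lower at an unadjusted p under 0.05), and with the treatment label as a covariate 6 genes were called higher and 4 lower.

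The authors deposited the same libraries as 2 tables, one of all reads and one in which reads were divided into those of genome 1, of genome 2 and unassigned. The sum over the divided table held 95.62 to 96.43% of the reads of the undivided one. The tables gave the same read number within 10% for 67.2% of 18493 genes, and differed by over 1.5-fold for 7.95%. The sum of the divided table called 16 genes, or 0.0847% of 18891, and 3 of these were among the 25: Stag2, Tek and Dusp9. Of the 25 genes, 24 had a divided value of the same sign, Emp1 being the exception, and 15 again had groups that did not overlap. All of the 15 except Bcl7a also had an unadjusted p under 0.05, and 8.21% of all genes in that table met both criteria. The tables hold the same RNA and mostly the same reads, so they are not independent measurements, and which of them is nearer to the true level was not tested.

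A further count used only the reads assigned to a parental genome, which carry a strain difference and made up 29.71 to 31.23% of reads. In these reads 18 of the 25 genes had the same sign, and 4 had an unadjusted p under 0.05 with groups that did not overlap, against 6.63% of 15571 genes, while edgeR called 0 of the 25 (2 of all genes called and 1587 with an unadjusted p under 0.05). The 4 genes were Tek (1.07), Acsl3 (0.92), Dusp9 (-0.54) and Pecam1 (0.29), each on the log2 scale. In the unassigned reads alone 22 of 24 genes had the same sign, and 12 had an unadjusted p under 0.05 with groups apart against 8.0% of 16796 genes. There edgeR called 7 of the 24, and 19 of all genes, with 1970 at an unadjusted p under 0.05. These counts were chosen after the values were seen.

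**Figure D1:**
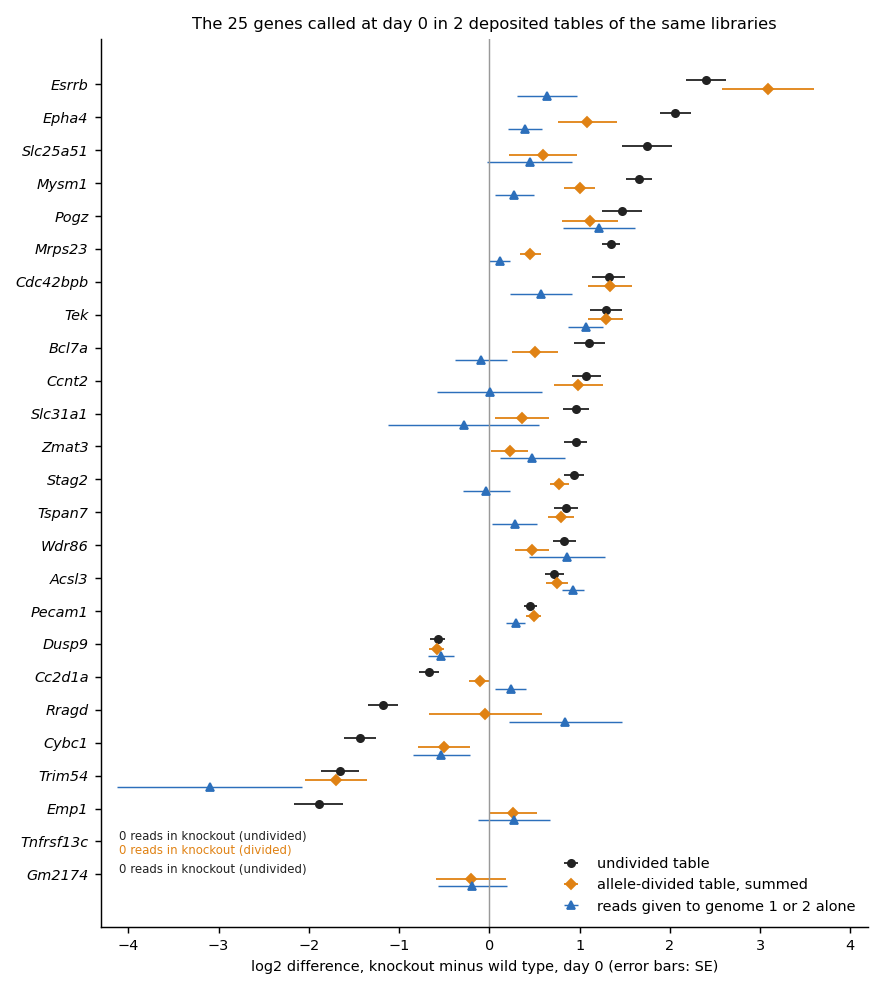
Log2 difference, knockout minus wild type at day 0, of the 25 called genes; points are fitted values and bars their SE, in the undivided table (circles), the sum of the allele-divided table (diamonds) and the reads given to genome 1 or 2 alone (triangles). Tek, Acsl3 and Dusp9 sit at similar values in all 3 counts, and Pecam1 goes from 0.46 and 0.49 in the 2 tables to 0.29 in the assigned reads. Emp1 moves from -1.89 to 0.27 and Mrps23 from 1.35 to 0.45 between the undivided and the divided table.

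Esrrb (chromosome 12, 86361117 to 86521628) had the highest log2 difference of the called genes. The knockout libraries read 205, 315 and 173 CPM, and the wild type libraries 54.5, 38.5 and 38.5 CPM. The lowest knockout library was well above the highest wild type library, and the log2 difference was 2.40 (SE 0.22, edgeR adjusted p = 0.00147). In the divided table the knockout libraries read 576, 90.7 and 529 CPM and the wild type libraries 57.5, 41.9 and 41.4 CPM. The groups stayed apart there, but knockout replicate 2 moved from the highest to the lowest of the knockout libraries, and the adjusted p was 0.0590. Esrrb reads assigned to a parental genome numbered 2877 against 1829 (log2 0.64, SE 0.33), and unassigned reads 36489 against 2347, so the excess lay mainly in reads that were not assigned to a strain.

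The Esrrb reads were credited to different transcripts in the 2 groups. Esrrb-203, a coding form that starts at 86421644, held 81.9, 97.8 and 97.0% of the gene's reads in knockout and 0% in each wild type library. The wild type group had 0 of 4108 Esrrb reads on it, which allows a share of up to 0.073%, a limit that covers counting error only. Esrrb-204, which starts at 86361117, held 28.4, 36.8 and 28.2% in wild type and 0.0166, 0.0120 and 0.0139% in knockout, and Esrrb-206, starting at 86470117, took most of the rest of the wild type reads. In the divided table Esrrb-203 again had no wild type read and held 87.5, 35.5 and 95.0% in knockout. The usage test, which asks whether a gene's transcripts share its reads differently between groups, gave an adjusted p of 0.0231 in the undivided and 0.0209 in the divided table.

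The starts of the coding sequences are shown because these reads separate forms that differ in their first exon and in the protein's first residues. In the Esrrb-203 line capitals mark the 63 bases, or 21 residues, that lie before the first codon of Esrrb-206. Esrrb-204 joins Esrrb-203 within that stretch, so the end of the capitals is shared with it, and its own capitals mark the 2 bases that are not in Esrrb-203.
Esrrb-203: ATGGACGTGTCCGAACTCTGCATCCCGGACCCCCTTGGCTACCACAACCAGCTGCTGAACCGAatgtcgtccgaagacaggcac
Esrrb-206: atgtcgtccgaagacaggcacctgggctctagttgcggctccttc
Esrrb-204: ATgctgctgaaccgaatgtcgtc

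The 250 bases before the starts of Esrrb-204 and Esrrb-203 are shown because the credited starts lie 60527 bases apart. They run from 86360867 to 86361116 and from 86421394 to 86421643 on the plus strand of chromosome 12 (RefSeq, GRCm38.p6), with CpG pairs in capitals.
Esrrb-204 upstream: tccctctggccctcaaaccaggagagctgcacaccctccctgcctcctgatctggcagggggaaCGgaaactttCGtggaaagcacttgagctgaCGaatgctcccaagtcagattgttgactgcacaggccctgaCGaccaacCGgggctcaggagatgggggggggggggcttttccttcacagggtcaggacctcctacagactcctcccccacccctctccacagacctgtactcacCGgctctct
Esrrb-203 upstream: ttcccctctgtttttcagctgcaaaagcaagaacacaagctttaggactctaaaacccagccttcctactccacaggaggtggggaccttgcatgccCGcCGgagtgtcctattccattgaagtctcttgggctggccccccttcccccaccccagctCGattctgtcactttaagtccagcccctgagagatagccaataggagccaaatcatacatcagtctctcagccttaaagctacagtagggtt

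Their GC content was 60.8 and 52.0%, beside a median of 52.4% over 32851 promoters, and they held 6 and 3 CpG pairs. On either strand, neither held the nuclear receptor site AAGGTCA (in 4.08% of promoters), the GC box GGGCGG (32.7%), the STAT motif TTCCNGGAA (0.913%), the AP-1 site TGACTCA (4.46%) or the E-box CACGTG (6.02%).

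Among surface receptors and junction proteins, Epha4, Tek, Pecam1 and Tspan7 were higher. Epha4 (chromosome 1, 77367185 to 77515088), a receptor for ephrins in contact-dependent signalling, measured 50.2, 34.7 and 32.0 CPM against 9.63, 9.93 and 8.44 CPM (log2 2.06, SE 0.17, adjusted p = 0.00126). The divided table placed it at 51.1, 30.1 and 29.4 against 13.1, 10.9 and 28.1 CPM, where wild type replicate 3 came close to the knockout libraries and the log2 difference was 1.09 (SE 0.33). Tek (chromosome 4, 94739289 to 94874976), the receptor for angiopoietins, measured 15.5, 12.5 and 10.9 CPM against 4.59, 5.23 and 6.08 CPM. Its log2 difference was 1.29 in both tables (adjusted p = 0.0313 and 0.0400). It was 1.07 (SE 0.19) in the assigned and 1.49 (SE 0.23) in the unassigned reads, so Tek was higher in each of these counts.

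Pecam1 (chromosome 11, 106654217 to 106750628), a homophilic adhesion molecule that marks naive ES cells as well as endothelium, differed little but evenly. Knockout libraries read 56.1, 57.1 and 56.3 CPM and wild type libraries 38.5, 43.8 and 41.2 CPM. The log2 difference was 0.46 (SE 0.07, adjusted p = 0.0431) in the undivided and 0.49 in the divided table. In the assigned reads Pecam1 was at 0.29 (SE 0.10) and in the unassigned reads at 0.79 (SE 0.11), so its size depended on which reads were counted. It was called in none of the 6 fits that left out a library. Tek and Pecam1 were the only called genes among 18 tested endothelial receptors and ligands. The median log2 difference of that list was 0.15 in the undivided and -0.02 in the divided table, and 0.02 without knockout replicate 1, beside 0.0004449 over all genes in the undivided table.

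Chromatin and transcription regulators made up the next set. Mysm1 (chromosome 4, 94942040 to 94979100), which removes ubiquitin from histone H2A and lies beside Tek on the chromosome, measured 23.4, 18.4 and 17.5 CPM against 6.55, 5.79 and 6.46 CPM (log2 1.66, SE 0.15, adjusted p = 0.00147). It stayed apart in the divided table at 20.6, 19.1 and 15.2 against 9.60, 7.68 and 10.2 CPM, where the log2 difference was 1.00 (adjusted p = 0.0637). Pogz, a zinc finger protein that binds heterochromatin protein 1, measured 52.1, 38.9 and 26.8 CPM against 15.1, 14.6 and 12.8 CPM (log2 1.47, SE 0.22, adjusted p = 0.0396). Its groups overlapped in the divided table, at 1.11.

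Ccnt2 (chromosome 1, 127774164 to 127808061), a cyclin of the kinase complex P-TEFb that releases paused RNA polymerase II, measured 39.5, 25.4 and 29.5 CPM against 15.2, 16.2 and 13.5 CPM (log2 1.07, SE 0.16, adjusted p = 0.0396). Bcl7a, a subunit of SWI/SNF remodelling complexes, was 1.11 higher (SE 0.17, adjusted p = 0.0442) but 0.51 in the divided table. Stag2 (X chromosome, 42149317 to 42277185), a cohesin subunit, measured 62.0, 52.8 and 61.4 CPM against 26.9, 32.4 and 32.7 CPM. It was called in both tables, at 0.94 (SE 0.11, adjusted p = 0.0107) and 0.78 (adjusted p = 0.0236). Assigned Stag2 reads, however, numbered 1132 against 1135, and unassigned reads 4747 against 2238.

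**Figure D2:**
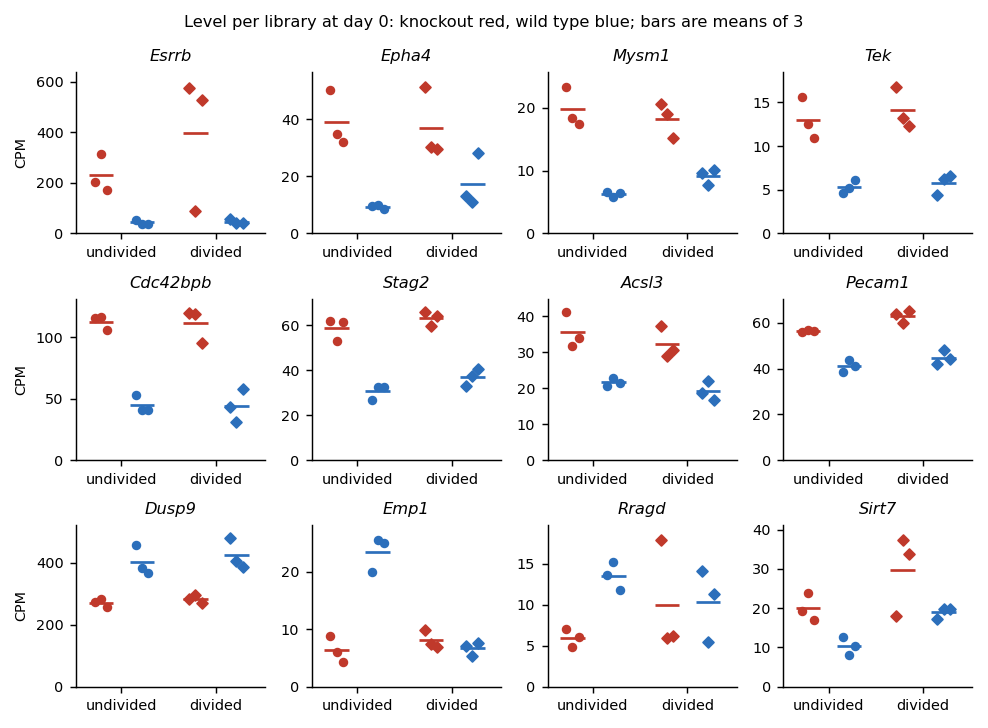
Level in CPM of 11 called genes and Sirt7 in each day 0 library, in the undivided and the allele-divided table, with 1 point per library. Dusp9, Tek, Stag2, Acsl3 and Pecam1 keep knockout and wild type libraries apart in both tables, and the Esrrb point of knockout replicate 2 drops from 315 to 90.7 CPM.

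Genes of metabolism and transport were on both sides. Mrps23 (chromosome 11, 88204388 to 88211507), a protein of the small mitochondrial ribosomal subunit, had the smallest adjusted p of all genes (0.000547), at 47.5, 53.8 and 51.9 CPM against 20.01, 20.3 and 19.7 CPM (log2 1.35, SE 0.10). In the divided table it read 42.6, 55.7 and 50.8 against 35.3, 38.7 and 35.0 CPM, still apart at 0.45 (SE 0.12), and its assigned reads numbered 2840 against 2587 (log2 0.11). Slc25a51, the carrier that brings NAD into mitochondria, measured 17.0, 18.7 and 18.8 CPM against 5.03, 7.63 and 3.51 CPM (log2 1.74, SE 0.28, adjusted p = 0.0460) and was 0.59 in the divided table.

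Acsl3 (chromosome 1, 78657825 to 78707743), which activates long-chain fatty acids at the endoplasmic reticulum and lipid droplets, measured 41.2, 31.6 and 34.0 CPM against 20.7, 22.9 and 21.3 CPM. Its differences of 0.72 (SE 0.11, adjusted p = 0.0360), 0.75 in the divided table and 0.92 in the assigned reads were close to each other. The plasma membrane copper transporter Slc31a1 was 0.96 higher (SE 0.15, adjusted p = 0.0396), but 0.36 in the divided table. Cdc42bpb (chromosome 12, 111292976 to 111377718), a kinase that acts below Cdc42 on actomyosin, measured 115, 116 and 105 CPM against 53.1, 40.6 and 41.1 CPM, with 1.32 in the undivided (SE 0.18, adjusted p = 0.0313) and 1.34 in the divided table. The remaining higher genes were Zmat3, a p53-induced RNA-binding protein (0.96, adjusted p = 0.0234; 0.22 divided), the X-linked tetraspanin Tspan7 (0.85, adjusted p = 0.0431; 0.79 divided) and Wdr86 (0.83, adjusted p = 0.0396; 0.47 divided).

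Of the 8 lower genes, Dusp9 had about the same difference in all 3 counts. Dusp9 (X chromosome, 73639419 to 73643514), a phosphatase that inactivates ERK and is present at high levels in female ES cells, measured 272, 282 and 258 CPM against 457, 382 and 366 CPM. The groups did not overlap, and the log2 difference was -0.57 (SE 0.08, adjusted p = 0.0360), -0.58 in the divided table (adjusted p = 0.0400) and -0.54 in the assigned reads. Trim54, a microtubule-associated protein of muscle, was low in both groups and at -1.65 (SE 0.21, adjusted p = 0.0214), with -1.70 in the divided table.

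Emp1, Cybc1, Rragd, Cc2d1a and Gm2174 differed between the tables. Emp1, an epithelial membrane protein, measured 8.76, 5.98 and 4.29 CPM against 20.01, 25.5 and 24.98 CPM (log2 -1.89, SE 0.28, adjusted p = 0.0360). In the divided table it read 9.83, 7.53 and 6.97 against 7.17, 5.38 and 7.67 CPM, where the groups overlapped and the difference was 0.27. Cybc1, a chaperone of the NADPH oxidase cytochrome, was -1.43 (SE 0.18, adjusted p = 0.0207) and -0.50, Rragd, a Rag GTPase of lysosomal mTORC1 signalling, -1.18 (SE 0.17, adjusted p = 0.0313) and -0.04, and Cc2d1a, a scaffold of signalling and of endosomal sorting, -0.67 (SE 0.11, adjusted p = 0.0460) and -0.11. Gm2174 went unread in the knockout libraries of the undivided table, 0 against 141 reads (at least 46.7-fold lower against a floor of 3 reads over the group), yet read 0.819, 1.47 and 1.62 against 1.26, 1.38 and 1.87 CPM in the divided table. It overlaps the pseudogene Gm14633, and strand use in counting is not given in the sources used here. Tnfrsf13c had 0 against 22 reads, at least 7.28-fold lower, and in the divided table it again had no knockout read, against 0, 0.20 and 0.37 CPM.

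The divided table called 13 genes that the undivided one did not, chosen here from that table's result. Nfe2l1, a transcription factor that induces proteasome genes, measured 139, 122 and 126 CPM there against 52.8, 45.8 and 46.5 CPM (log2 1.42, adjusted p = 0.0233), and in the undivided table its log2 difference was 2.28 without passing (adjusted p = 0.139). The fatty acid desaturase Fads1 measured 33.9, 54.7 and 31.2 CPM against 14.97, 13.0 and 14.1 CPM (log2 1.51, adjusted p = 0.0200), with 0.31 in the undivided table. The SUMO protease Senp6 was 0.53 and 0.65 in the divided and undivided table, the mitochondrial protein Ptcd3 0.84 and 0.53, and the endosomal sorting protein Stam 1.34 and 0.64. Tsc22d1 had opposite signs, -0.85 in the divided and 1.08 in the undivided table.

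Beyond the called genes, 958 genes (4.98% of those tested) were higher and 673 (3.50%) were lower with an unadjusted p under 0.05 in edgeR and groups that did not overlap. These genes did not pass adjustment, and their values are given as a description. Without knockout replicate 2 the counts were 1501 (7.52%) and 1201 (6.02%). Without knockout replicate 1 the shares were 3.72 and 3.58%, and without knockout replicate 3 they were 5.83 and 4.39%. Without wild type replicate 1, 2 or 3, 5.88, 5.2 and 5.31% were higher and 3.55, 3.31 and 3.51% lower. Of the 1631 genes found with all libraries, 1032 (63.3%) were found again with the same sign in the divided table, which counts mostly the same reads.

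Genes of this kind whose size hardly changed between the tables included several regulators. Otx2, a homeobox factor of the formative state that follows naive pluripotency, measured 51.5, 42.5 and 41.3 CPM against 28.2, 22.7 and 29.3 CPM (log2 0.76 in the undivided and 0.75 in the divided table, edgeR adjusted p = 0.130 and 0.0822). The acetyltransferase gene Ep300 measured 103, 74.6 and 69.8 CPM against 51.7, 51.5 and 55.0 CPM (0.64 in both tables). In each of these genes the lowest knockout library lay above the highest wild type library.

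Mbnl1, a regulator of alternative splicing and polyadenylation, measured 1.40, 1.51 and 3.86 CPM against 10.3, 15.1 and 13.0 CPM (log2 -2.49 and -2.48, adjusted p = 0.109 and 0.149). At day 7 the Mbnl1 difference was 0.92. Its paralogue Mbnl2 depended on the table: it was at 2.06 in the undivided one, and at 0.52 in the divided one with overlapping groups. Lgr4, the R-spondin receptor of Wnt signalling, measured 9.99, 6.36 and 10.8 CPM against 16.5, 19.5 and 17.9 CPM (-0.99 and -0.91).

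Other genes with near-equal values in the undivided and divided table were the prion protein gene Prnp (0.66 and 0.66), the ubiquitin ligase adaptor Klhl24 (0.76 and 0.74), Septin10 (1.01 and 1.01), the desmosomal cadherin Dsg2 (0.65 and 0.64) and Hoxd9 (-1.19 and -1.26). In contrast, the DNA repair scaffold Trp53bp1 was 0.84 and 0.13, the ES cell zinc finger gene Zscan10 was -1.30 and -0.06, and Zfp637 was -1.51 and 0.36, so these depended on the table.

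Within the pluripotency network, 4 of 45 tested genes were higher and 4 lower with unadjusted p under 0.05 and groups apart (8.89% each, beside 4.98 and 3.50% of all genes). The median log2 difference was 0.01. Nanog measured 936, 995 and 1121 CPM against 992, 1028 and 1065 CPM, a log2 difference of -0.02 with overlapping groups. Pou5f1 measured 2158, 2493 and 2405 CPM against 2765, 2631 and 2555 CPM, a log2 difference of -0.17 with every knockout library below every wild type library. Klf5 (0.18) and Sall1 (0.50) lay higher beside Esrrb and Otx2, and Gbx2 (-0.62), Etv4 (-0.27) and Zscan10 lower. Without knockout replicate 3, 7 were higher (15.6%, beside 5.83% of all genes in that fit). Without wild type replicate 1, 2 were lower (4.44%, beside 3.55%). Esrrb was the only called gene of this network, and its relatives Nr5a2 (0.11) and Esrra (-0.23) differed by far less.

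Hypoxia genes, which follow the oxygen-regulated factor HIF-1 alpha, had the highest share of higher members of any list. Of 22 tested, 6 were higher with groups apart (27.3%, beside 4.98% of all genes), 0 were lower, and edgeR called 0 after adjustment. The median log2 difference was 0.17. Hif1a measured 66.0, 30.9 and 38.3 CPM against 28.3, 28.0 and 13.4 CPM (0.95), and the mitophagy receptor Bnip3 17.3, 15.4 and 20.8 CPM against 8.87, 10.9 and 13.1 CPM (0.70). The prolyl hydroxylases Egln3 (0.77) and Egln1 (0.28), which mark HIF-1 alpha for degradation, the collagen hydroxylase P4ha1 (0.30) and the glucose transporter Slc2a1 (0.18) made up the rest. The divided table also had 6 higher and 0 lower, with a median of 0.26. Without knockout replicate 1 the count was 3 of 22 (13.6%), beside 3.72% of all genes in that fit.

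Redox genes leaned the other way, with 6 of 38 tested lower and 1 higher (15.8 and 2.63%, beside 3.50 and 4.98% of all genes), and a median log2 difference of -0.14. Besides Cybc1 the lower members were superoxide dismutase Sod1, at 558, 715 and 722 CPM against 819, 860 and 790 CPM (-0.31), the peroxiredoxins Prdx4 (-0.20) and Prdx6 (-0.32), the mitochondrial thioredoxin reductase Txnrd2 (-0.45) and the small Maf protein Mafg (-0.32). The higher member was Nfe2l2 (0.34), the factor that induces many antioxidant genes. The divided table had 6 lower and 2 higher of 37.

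In the Nodal and BMP list, 6 of 47 genes were lower and 1 higher with groups apart (12.8 and 2.13%, beside 3.50 and 4.98%). The median log2 difference was -0.0027. Most lower members belong to the BMP arm: the direct targets Id1, at 49.7, 69.1 and 55.4 CPM against 108, 83.9 and 75.2 CPM (-0.62), Id3 (-0.49) and Msx2 (-0.64), the inhibitory Smad6 (-0.40) and the ligand Bmp4 (-0.37). The sixth was Foxh1 (-0.18), a partner of Smad2 in Nodal signalling. Wild type replicate 1 was the highest library for Id1, Id3, Smad6 and Bmp4, and had the lowest reads of the Nodal inhibitors Lefty1 (15.2 CPM, other libraries 63.1 to 88.1) and Lefty2 (24.4 CPM, others 120 to 183). Without that library 4 members were lower (8.51%) and 10.6% of the list was higher, beside 3.55 and 5.88% of all genes in that fit. Why that library stood apart was not tested.

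Of 36 adhesion and junction genes 6 were higher and 2 lower (16.7 and 5.56%, beside 4.98 and 3.50% of all genes). Their median log2 difference was 0.17. E-cadherin Cdh1 measured 319, 223 and 242 CPM against 218, 216 and 215 CPM (0.27), and P-cadherin Cdh3 (0.21), the tight junction protein Tjp1 (0.82), Dsg2, the scarcely read Dsc2 (2.14) and Pecam1 were the others. The divided table had 3 higher and 0 lower (8.33 and 0%, beside 4.48 and 3.73% of all genes there). Of 20 Eph receptors and ephrins, Epha4, Epha7 (1.49) and Ephb3 (0.36) were higher and 0 were lower (15 and 0%, beside 4.98 and 3.50%).

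In the FGF and ERK list 5 of 50 genes were higher and 3 lower (10 and 6%, beside 4.98 and 3.50% of all genes). The early response gene Egr1 measured 19.5, 11.7 and 11.6 CPM against 2.796, 7.63 and 7.82 CPM (1.23) and the ligand Fgf15 25.1, 25.2 and 27.3 CPM against 19.1, 18.98 and 20.2 CPM (0.41), beside the lower phosphatase Dusp9, the kinase Map2k2 (-0.36) and Etv4. The feedback inhibitors Spry4 (-0.04) and Dusp6 (0.06) had overlapping groups. In NAD metabolism, 4 of 28 were higher (14.3%), Slc25a51, Sirt7, the salvage enzyme Nampt (0.45) and Tnks2 (0.37), and the NAD kinase Nadk was lower (-0.62). The divided table had 2 of the 28 higher and 0 lower, with Nadk at -0.20. Of 44 Polycomb and H2A deubiquitination genes 5 were higher (11.4%) and 2 lower (4.55%), among them Bmi1 (0.98) and Ring1 (-0.39), both of Polycomb repressive complex 1. Without knockout replicate 1, or without wild type replicate 2, 2 of the 44 were higher (4.55%), beside 3.72 and 5.2% of all genes in those fits. Without knockout replicate 2, 9 of the 50 FGF and ERK genes were higher (18%, beside 7.52% of all genes in that fit). Without wild type replicate 2, 5 were lower (10%, beside 3.31%).

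Lists tied to the known roles of SIRT7 held no called gene except Pogz. Over all genes, 4.98 and 3.50% were higher and lower with an unadjusted p under 0.05 and groups apart. Of 37 genes of RNA polymerase I and the nucleolus 3 were higher and 5 lower (8.11 and 13.5%), with differences between -0.44 and 0.38, and edgeR called 0 of them. Of 19 reported SIRT7 substrates and partners, Hif1a (0.95) and Smarca5 (0.27) were higher and Rrp9 (-0.40) lower (10.5 and 5.26%). The divided table had 4 higher and 0 lower (21.1 and 0%, beside 4.48 and 3.73% of all genes there). Rrp9 was at -0.39 there with overlapping groups. Leaving out 1 library gave between 1 and 4 higher and 1 or 2 lower. Of 30 genes of H3K9 methylation and heterochromatin 4 were higher (Pogz, Kdm4c, Atrx and Kdm1a; 13.3%) and 0 lower. Without knockout replicate 1, 6.67% were higher and 10% lower, beside 3.72 and 3.58% of all genes in that fit. Of 51 double-strand break repair genes 4 were higher (7.84%) and 0 lower. Leaving out either knockout replicate 1 or wild type replicate 2 gave 2 higher (3.92%), beside 3.72 and 5.2% of all genes. Leaving out knockout replicate 2 gave 8 (15.7%), beside 7.52%. The RNA polymerase I list had 1 higher gene (2.7%) when knockout replicate 1, knockout replicate 3 or wild type replicate 2 was left out. It had 5 higher and 9 lower when knockout replicate 2 was (13.5 and 24.3%, beside 7.52 and 6.02% of all genes). Of 31 genes of the unfolded protein response 1 was lower and 0 higher, while the divided table had 2 lower and 3 higher. The lists and their members were chosen with earlier results of these data known.

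In the remaining lists the higher and lower members mixed, and 4.98 and 3.50% of all genes were higher and lower by the same criteria. Among 78 splicing factors 9 were higher and 7 lower (11.5 and 8.97%). Besides Mbnl2, the higher ones included Qk (0.58) and the U2 component Sf3b1 (0.55), and 4 of the lower ones were core spliceosomal proteins, Snrpa (-0.21), Snrpf (-0.23), Snrpb (-0.26) and Snrpd1 (-0.29). Of 66 lysosome and autophagy genes 7 were higher (10.6%), among them 3 subunits of the acidifying V-ATPase (Atp6v1a 0.41, Atp6v1c1 0.33 and Atp6v1d 0.23) and the membrane proteins Lamp1 (0.22) and Lamp2 (0.37), and 3 were lower, with Atp6v1f (-0.23) among them. Of 59 Wnt genes 6.78% were higher and 3.39% lower, near the shares over all genes. The receptors Fzd6 (0.81) and Fzd7 (0.52), beta-catenin Ctnnb1 (0.40) and the kinase Csnk1a1 (0.27) were higher, and Lgr4 and the target Cdx1 (-1.06) lower. Of 35 apoptosis genes 4 were higher (11.4%), led by the p53 target Pmaip1 (0.97), and 3 lower (8.57%), among them Bax (-0.22). Mitochondrial carriers had 4 of 44 lower (9.09%), and Slc25a51 was the only higher one (2.27%). None of these members passed adjustment except Slc25a51. Several of these counts changed when 1 library was left out, and so did the shares over all genes. The lysosome list had 3 of 66 higher (4.55%) without knockout replicate 1, 4 (6.06%) without wild type replicate 2, and 4 in the divided table. The shares over all genes there were 3.72, 5.2 and 4.48%. The Wnt list had 2 higher and 4 lower when either knockout replicate 1 or wild type replicate 2 was left out, and 5 lower when knockout replicate 2 was. Without knockout replicate 2, 14 splicing factors were higher (17.9%) and 8 mitochondrial carriers lower (18.2%), beside 7.52 and 6.02% of all genes. Without knockout replicate 3, 5 apoptosis genes were lower (14.3%), beside 4.39%.

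**Figure D3:**
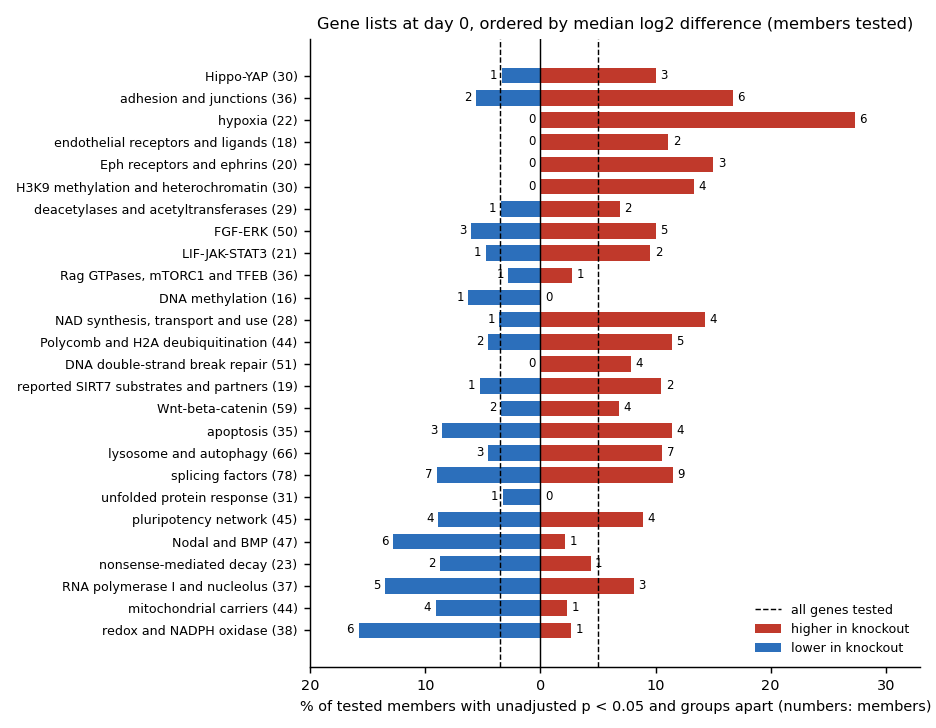
Tested members of each gene list shown, at day 0, as the share higher and the share lower in knockout with an unadjusted p under 0.05 and groups that do not overlap, with the values over all genes (4.98 and 3.50%) for comparison. The hypoxia list has the highest share of higher members (27.3%), and the redox list a share of lower members of 15.8%.

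Transcript shares were called in more genes than levels were. Single transcripts were called in 23 of 45908 tests (0.0501%), 16 higher and 7 lower, with 3361 at an unadjusted p under 0.05. The usage test called 221 of 9394 genes (2.35%), with a median largest share difference of 20.39 percentage points, and 43 genes over 50 points. The divided table called 283 of 9419 genes (3.0%). Of the 221 genes, 219 could be tested there and 107 were called again, and 158 had an unadjusted p under 0.05, beside 14.5% of all genes. StringTie estimates such shares from short reads, most of which fit several transcripts of a gene, so a share is a model's estimate.

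For most of the 221 genes the gene's own level was not called. An unadjusted gene-level p under 0.05 was found for 66 of them, beside 15.8% of all genes with a usage test, and 6 were called at both levels (Ccnt2, Pecam1, Stag2, Esrrb, Mrps23 and Cybc1). The shares of Pecam1 (adjusted p = 0.00375 and 0.112), Stag2 (0.0184 and 0.121) and Cybc1 (0.0390 and 0.184) passed in the undivided table alone, while those of Ccnt2, Esrrb and Mrps23 passed in both.

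Several coding genes showed the same arrangement: a transcript with a large share in all 3 knockout libraries and no read in any wild type library. Kpna4, which encodes importin alpha 3 of nuclear import, had 89.3, 82.5 and 82.0% of its reads on Kpna4-203 in knockout and 0% in wild type, where 0 of 3765 reads allow up to 0.0797%. The divided table gave 86.9, 84.7 and 83.8% against 0% (usage adjusted p = 1.33e-05 and 1.31e-06). Sp3, a transcription factor of GC boxes, had 89.7, 93.1 and 97.0% on the processed transcript Sp3-204 against 0% (divided 76.2, 82.6 and 86.1% against 0%, adjusted p = 2.23e-07 and 4.94e-10). Ccnt2-201 held 54.5, 53.1 and 57.7% of Ccnt2 reads against 0% (divided 54.8, 36.2 and 35.3%), and Patz1-202, of a POZ and zinc finger factor, 52.0, 19.2 and 28.4% against 0%.

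Hnrnpul1-201, of a nuclear RNA-binding protein, held 7.75, 5.23 and 5.63% of reads against 0%, with a wild type limit of 0.0184%. Bcl9-207, of a beta-catenin coactivator, varied more, at 65.1, 5.77 and 48.7% against 0%, and Irak3-202, a form annotated for nonsense-mediated decay of a brake on Toll-like receptor signalling, held 70.2, 25.5 and 31.0% against 0%. Knockout replicate 2 was the lowest library for Patz1, Bcl9 and Irak3.

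The coding sequences around the points where these transcripts part are shown because they show how the annotated proteins of these forms differ. Capitals mark bases present in that form alone. Kpna4-203 and Kpna4-201 start 21 bases apart, and the annotated coding sequence of Kpna4-201 is 306 bases (102 residues) longer at its start, of which the last 45 bases are shown (chromosome 3, minus strand).
Kpna4-203: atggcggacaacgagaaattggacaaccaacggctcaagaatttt
Kpna4-201: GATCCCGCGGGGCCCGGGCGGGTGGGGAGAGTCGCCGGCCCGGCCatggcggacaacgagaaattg
Hnrnpul1-205, the other coding form of Hnrnpul1 (chromosome 7, minus strand), likewise has 300 bases (100 residues) more at its start.
Hnrnpul1-201: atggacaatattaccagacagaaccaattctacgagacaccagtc
Hnrnpul1-205: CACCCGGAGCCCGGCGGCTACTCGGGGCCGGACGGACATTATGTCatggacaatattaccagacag
Ccnt2-201 (chromosome 1, plus strand) keeps 98 bases that Ccnt2-202 removes as an intron, and ends in its own reading frame, 198 coding bases longer in all.
Ccnt2-201: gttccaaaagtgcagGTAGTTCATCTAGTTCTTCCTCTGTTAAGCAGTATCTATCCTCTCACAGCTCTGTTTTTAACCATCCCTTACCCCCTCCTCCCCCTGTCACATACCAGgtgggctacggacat
Ccnt2-202: gttccaaaagtgcaggtgggctacggacat
Irak3-202 (chromosome 10, minus strand) ends its coding sequence 4 bases after the last base it shares with Irak3-201, of which the first part beyond that base is shown.
Irak3-202: tggcaacgtttccagGTAA
Irak3-201: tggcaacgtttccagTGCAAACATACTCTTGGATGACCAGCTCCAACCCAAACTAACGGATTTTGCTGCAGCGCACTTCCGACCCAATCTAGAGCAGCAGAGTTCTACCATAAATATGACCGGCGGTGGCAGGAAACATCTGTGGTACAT

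In other genes the transcripts that parted encode the same protein. Serpinh1, the collagen chaperone with the smallest usage p (adjusted p = 4.13e-08, 4.81e-05 divided), Bcl9 (4.24e-07 and 1.6e-05) and Ccnj (0.00141 and 0.0187) shifted between forms with identical coding sequences, so that the forms differ only outside it. Usage calls also depended on the table: those of Acer2 (5.47e-05 and 0.228), Sparc (0.000549 and 1) and Ipo4 (0.00119 and 1) were lost in the divided table. Ugp2-201 held 96.6, 86.0 and 94.0% of Ugp2 reads in knockout in the undivided table and 8.61, 4.78 and 9.31% in the divided table, against at most 0.45% in wild type in both. Rbbp8-201 and Armcx3-201 held 91.2 to 97.5% and 98.7 to 100% in knockout against 0%, but in the divided table Rbbp8-201 held 61.8% in knockout replicate 1 alone, and Armcx3-201 held 7.29, 0 and 88.1%.

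At day 7 the same transcripts were present in wild type. Sp3-204 held 95.0% of reads in knockout and 93.3% in wild type, Ccnt2-201 54.3 and 46.7%, Patz1-202 35.4 and 55.0%, and Bcl9-207 80.6 and 75.4%. Kpna4-203 held 83.1, 85.6 and 83.6% in knockout and 82.1, 67.3 and 9.0% in wild type, so wild type replicate 3 stood apart. Of the 4 groups, wild type at day 0 was the only one with no read of these transcripts. Counted over all transcripts, 8 had no read in any wild type day 0 library and at least 1 CPM in each of the 9 other libraries (Rbbp8-201, Kpna4-203, Armcx3-201, Ccnj-202, Hnrnpul1-201, Sp3-204, Ccnt2-201 and Patz1-202). The same count was 1 for knockout at day 0, 2 for knockout at day 7 and 1 for wild type at day 7. In the divided table the counts were 7, 1, 1 and 1, with Hnrnpul1-201, Kpna4-203, Sp3-204, Patz1-202 and Ccnt2-201 again among the 7. This count was chosen after the values were seen, and nothing in the labels sets the 3 wild type day 0 libraries apart from the others.

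**Figure D4:**
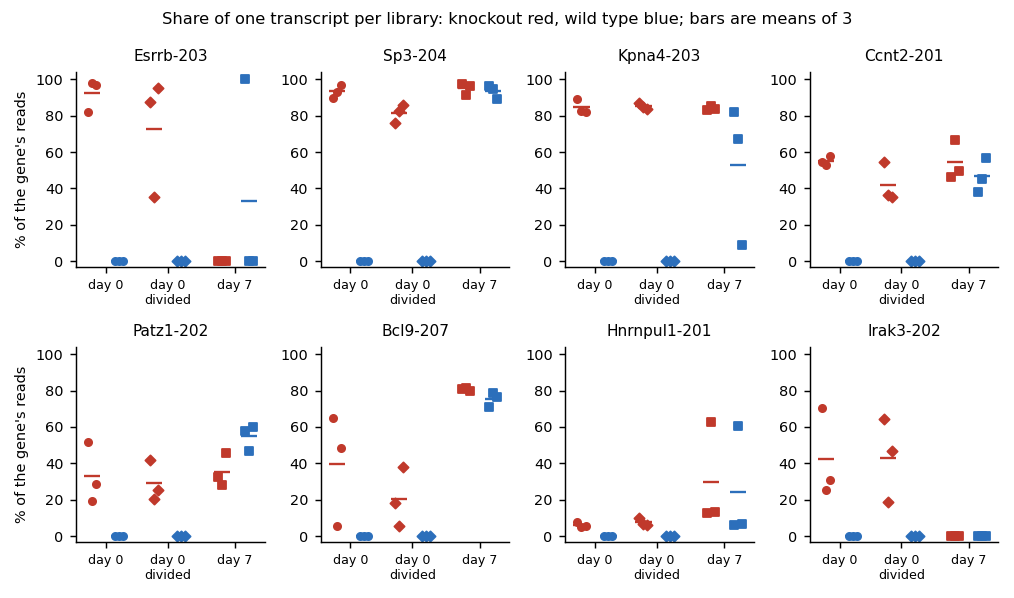
Share of the gene's reads on 8 transcripts, in percent, with 1 point per library, for day 0 in the undivided table, day 0 in the divided table and day 7. Wild type day 0 libraries lie at 0%, except Irak3-202 in the divided table at 0.207 to 0.223%, and Sp3-204 and Ccnt2-201 are as common in wild type as in knockout at day 7.

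Across genes the day 0 difference ran with transcript length. In 5 equal groups by length the median log2 difference went from -0.10 in the shortest genes through -0.07, -0.003 and 0.07 to 0.14 in the longest. At day 7 it also rose, from -0.07 in the shortest to 0.06 in the longest group. The share of genes higher with groups apart at day 0 went from 1.74 to 10.1%, and that of lower genes from 4.83 to 1.51%. The called higher genes had a median length of 4518.2 bases and the called lower genes 2467.85, beside 2437.6 over all genes. Knockout replicate 1 had the steepest course of the 6 libraries, with -0.154 in the shortest and 0.157 in the longest group relative to the mean of the 6 libraries, and a mean transcript length of 2644.1 bases against 2410.9 to 2472 in the other 5. Knockout replicates 2 (0.00734 and 0.00741) and 3 (0.0352 and 0.0208) had no such rise. Wild type replicates 1, 2 and 3 fell from 0.00422, 0.0581 and 0.0525 to -0.0458, -0.0428 and -0.0491. The median deviation of each length group was then taken out of each library as an offset, estimated from these same libraries. With it edgeR called 15 genes higher and 13 lower, and 5 of the 22 hypoxia genes were higher with groups apart. The mitochondrial share of reads was 4.118 ± 0.238% in knockout and 3.606 ± 0.402% in wild type (SD, n = 3 each, exact two-sided permutation p = 0.2, where the smallest possible is 0.1).

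**Figure D5:**
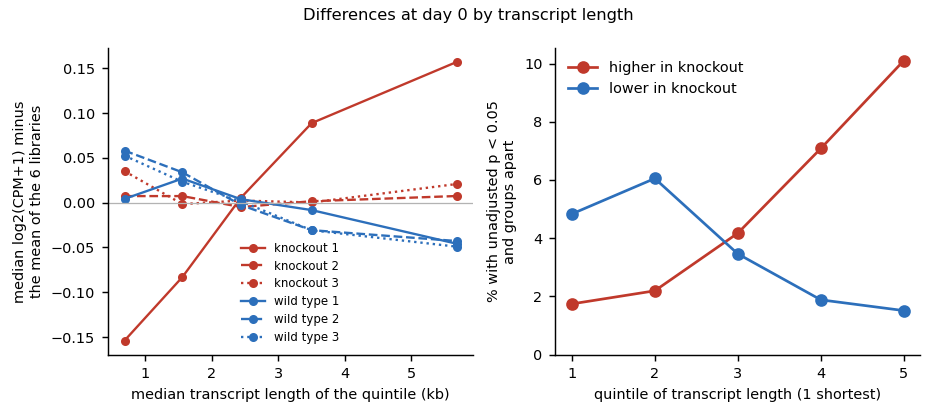
Left, for each day 0 library, the median over genes of log2(CPM + 1) minus the mean of the 6 libraries, in 5 equal groups of genes by transcript length. Right, the percent of genes in each group that are higher or lower with an unadjusted p under 0.05 and groups apart. Knockout replicate 1 goes from -0.154 to 0.157, and the percent of higher genes from 1.74 to 10.1.

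For allelic balance, the genome 1 and genome 2 reads of each gene were compared between the groups. Of 10502 genes with at least 20 assigned reads in each library, edgeR called 0 (0%), while 294 (2.8%) had an unadjusted p under 0.05. Among the 25 genes called by level 21 could be tested, 0 were called and 1 had an unadjusted p under 0.05. Acsl3, Cdc42bpb, Pogz, Slc31a1 and Gm2174 had no genome 2 read in any day 0 library, so the test could not call a change in them. The Acsl3 difference of 0.92 in assigned reads was therefore one of genome 1 reads alone. How many of all genes tested had no read of one genome was not counted. The column names do not say which strain is genome 1.

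Few of the day 0 differences were found at day 7. Of the 25 genes 13 had the same sign at day 7, 4 had an unadjusted p under 0.05, and 1 was called, Mrps23, at 36.5 against 15.9 CPM (log2 1.20, adjusted p = 0.00183), with 5 genes called in all (0.0260%). The share of all genes with an unadjusted p under 0.05 at day 7 is not given here, so the 4 cannot be compared with a background. The test of the difference between the days (interaction) called 5 genes (0.0260%), 2 of them among the 25: Epha4, where both groups had about the same level at day 7 (49.7 and 49.4 CPM, interaction -2.05), and Esrrb, which was nearly silent at day 7 (2.37 and 3.37 CPM, interaction -2.92), each with an adjusted p of 0.0152. Among usage calls 61 genes (0.649%) were called at day 7, 7 of them on both days, and 28 of the 221 had an unadjusted p under 0.05 at day 7, beside 8.12% of all genes tested. The hypoxia members had day 7 differences of 0.27 for Hif1a, -0.51 for Bnip3 and -0.30 for Slc2a1.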

How the data were processed

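RNA of 12 libraries (4 groups of 3) was measured after TRIzol extraction, polyA selection and NEBNext library preparation, per the labels' protocols. Per the submitters' processing notes, the tools named are HISAT2 2.1.0, StringTie 1.3.3, DESeq2 1.32.0, Trimmomatic 0.36, FastQC 0.11.3 and SAMtools 0.1.19, and the builds GRCm38 and mm10. Settings, annotation release and strand use: not given in the sources used here. Deposited by the authors were expected counts per gene and transcript, as StringTie estimates them and not normalized, in 1 table of all reads and 1 divided into genome 1, genome 2 and unassigned reads. Values were whole numbers and were used as deposited. Identifiers were matched to GENCODE release 21 (99.53% of 55487 genes), which also gave coordinates and coding sequences. Replicates of a group differed by more than sampling noise (chi-square per degree of freedom 32.9 to 60.7).

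All 12 libraries were fitted together by edgeR 4.0.16 (R 4.3.3) after TMM scaling and filterByExpr, with a coefficient for each group and the quasi-likelihood test, and p-values were adjusted by Benjamini-Hochberg over all features tested, with a threshold of 0.05. Levels are CPM on TMM library sizes. Transcript usage was tested with diffSpliceDGE (Simes p), and allelic balance by the interaction of allele and group, blocked by library, where each library had 20 or more assigned reads of the gene. Limits for 0 reads take 3 reads over the group and cover counting error only. Scripts were tested on simulated data.

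Genes named were Sirt7 and its 5 tested neighbours on each side; all called genes; the 24 next genes by unadjusted p and the 8 highest and 8 lowest differences among uncalled genes (mean log2 CPM of at least 2, groups apart, no predicted-gene symbol); up to 3 members per list; and the 20 transcripts and 20 genes by usage with the smallest adjusted p. Further list members, marker genes, genes called in the divided table alone and transcripts without wild type reads were named after their values were seen. The comparison, members and lists were chosen with earlier results of these data known. Alternatives were DESeq2 1.42.0, no filter, RLE size factors, day 0 libraries alone, a replicate block, the treatment label as covariate, each library left out and an F test of usage; length adjustment, the divided table, assigned or unassigned reads alone and lists without a library were chosen after seeing the data. A few results are not reported here.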

Additional observations from a re-analysis of the deposited data

Results flagged for a closer look

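The day 0 difference of Epha4 was not found at day 7, and the test of the difference between the days gave an adjusted p of 0.0152 in edgeR. Its knockout and wild type levels were 50.2, 34.7 and 32.0 against 9.63, 9.93 and 8.44 CPM at day 0 and averaged 49.7 against 49.4 CPM at day 7. For Esrrb the same test also gave an adjusted p of 0.0152, with 231 ± 74.5 against 43.8 ± 9.26 CPM (SD, n = 3 libraries each) at day 0 and 2.37 against 3.37 CPM at day 7. Both values come from the undivided table, and in the divided table Epha4 differed by 1.09 and Esrrb by 3.09 at day 0 on the log2 scale.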

How the results depend on the processing

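With DESeq2, 196 genes were called higher and 131 lower, and 738 transcripts higher and 487 lower. The 6 day 0 libraries alone gave 0 genes higher and 0 lower in edgeR (774 and 598 at an unadjusted p under 0.05), 1 transcript higher and 2 lower, and 71 genes by usage. The treatment label as covariate left 6 genes higher and 4 lower, 12 transcripts higher and 3 lower, and 105 genes by usage. Without the filter on low counts 3 transcripts were lower. The F test of usage called 388 genes. The divided table gave 11 genes higher and 5 lower, and 4 transcripts lower. Adjusting for length gave 13 genes lower. Leaving out each library in turn gave 8 to 34 genes higher, 5 to 21 lower, 25 to 51 transcripts higher, 11 to 20 lower, and 125 to 206 genes by usage. Among named genes, without transcripts, 1499 values under alternatives kept direction and side of the threshold, 162 were no longer called, 65 became called and 3 reversed. The 1499 include values of uncalled genes that stayed uncalled, whereas only genes called in the main fit could be no longer called. The 162 are therefore not a share of the 1499. The values that reversed were all in the divided table: Emp1 (0.2679), Zfp637 (0.364) and Ccdc115 (0.2249). The causes were not tested.

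After removing group means, same-numbered libraries correlated at 0.132, 0.0138 and 0.0422, and libraries of other numbers at -0.0919 to 0.0518. The value for replicate 1 lies above that range and the others within it. Whether the replicate numbers pair the libraries is therefore not decided by these values. With the replicate number as a block, edgeR called 6 genes higher, 0 lower (776 at an unadjusted p under 0.05), 8 transcripts higher, 3 lower and 61 genes by usage.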
